A study of Irpex lacteus with 9 samples.

Results

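Transcripts of *Irpex lacteus* growing on wheat straw with a sodium nitrate (NaNO3) solution added were compared with those of the fungus on straw with distilled water. The comparison uses 6 of the 9 libraries of the series, 3 with NaNO3 and 3 with water. A further 3 libraries, with NH4Cl, entered the joint fit for their spread between replicates, and their levels are not described. The strain, the amount of nitrate and the time on straw are not given in the sources used here. The labels also do not say whether replicates of a group came from separate cultures, so the spread that p-values rest on is that among these libraries and may be technical. The organism is given as *Irpex lacteus* in the title and labels but as *Tricholoma album* in the design text. Of 19212 genes in the table, 14808 passed the filter on low counts and were tested, and 16297 had at least 1 count in these 6 libraries. Wheat photosynthesis names matched 0 genes in the table, while 16 class II peroxidases and 23 hydrophobins, fungal families, were listed. The table holds gene models of the fungus, in which wheat genes would not appear. This search is therefore no check on plant RNA, the amount of which was not tested.

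*Irpex lacteus* is a white-rot fungus, able to break down lignin as well as cellulose, and is used to upgrade straw as feed. Straw holds much carbon and little nitrogen, so added nitrogen changes what is scarce for the fungus. In fungi nitrate enters through a transporter, is reduced to nitrite by nitrate reductase, a molybdenum enzyme, and then to ammonium by nitrite reductase, a siroheme enzyme. Ammonium is built into glutamate and glutamine, from which most other amino acids draw their nitrogen.

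Product names, protein domains and pathways are those of the authors' annotation and rest on similarity to proteins of other species, so a name gives a likely family and not a tested function. Levels are counts scaled to a common library size (CPM) after scaling by the trimmed mean of M-values (TMM). They are relative to a library's total counts times its TMM factor, and so are not plain shares of its reads. That factor was 1.186 for NaNO3 replicate 1 and 0.917 for NaNO3 replicate 2. With relative levels, less RNA per cell and fewer cells with a transcript cannot be told apart. Fold changes are log2 of NaNO3 over water, with their standard error, from edgeR's quasi-likelihood test on 3 libraries a group. A call means a Benjamini-Hochberg adjusted p under 0.05 over all genes tested, and "rose", "fell", "higher" and "lower" are used of called genes. Values are listed for replicates 1, 2 and 3 of each group in that order. The 6 libraries held between 18489704 and 23194078 counts.

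NaNO3 replicate 1 stood apart from the other NaNO3 libraries before any comparison with water was made. At least 2-fold from the mean log2 level of its group mates, it had 2043 of 14808 genes (13.8%), 937 above and 1106 below. The same count was 1102 genes for NaNO3 replicate 2, 660 for NaNO3 replicate 3 and 262 to 504 for the water libraries. The distance was widest in wood-decay and ribosome genes, described at the end. Counts of calls below are therefore given with all 9 libraries in the fit and again without this library, as are the values of many of the genes named.

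With NaNO3, 174 genes were higher (1.18% of those tested) and 575 were lower (3.88%) than with water. Without NaNO3 replicate 1, 92 genes were higher (0.615% of 14969 tested) and 394 lower (2.63%). Between those fits 58 higher genes were shared, 33.3% of the 174 and 63.0% of the 92, and 298 lower genes, 51.8% of the 575 and 75.6% of the 394. Without replicate 1 the median log2 fold change was 0.86 in the 174 higher genes, against 0.93 with it, and −1.49 in the 575 lower genes, against −1.45. Replicate 1 had the highest of the NaNO3 levels in 124 of the 174 higher genes. In every one of the 749 called genes the NaNO3 and water libraries did not overlap. Of all genes tested, 2105 (14.2%) lay wholly above water and 2780 (18.8%) wholly below.

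**Figure D1:**
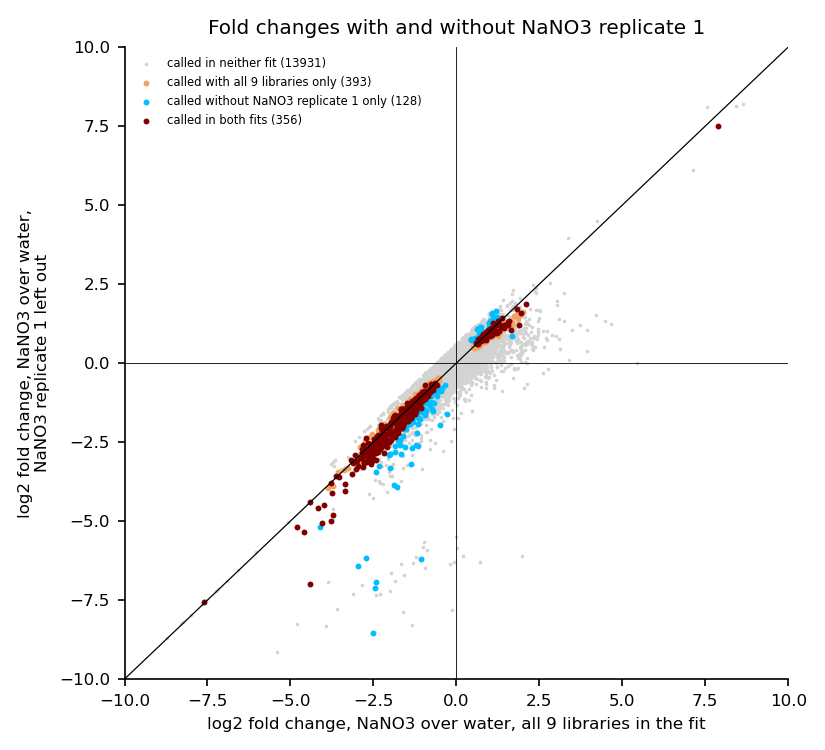
Log2 fold change of NaNO3 over water for each gene tested in both fits, with all 9 libraries (horizontal axis) and with NaNO3 replicate 1 left out (vertical axis). The 356 genes called in both fits lie near the diagonal on the side of their sign, while the 393 called only with all libraries and the 128 called only without replicate 1 lie on either side of it. Points far below the diagonal are genes at or near 0 counts in NaNO3 replicates 2 and 3, whose fitted fold is not a measured size.

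The called genes were few in reads on one side and many on the other. Summed over the 174 higher genes, the level was 14344, 11603 and 10826 CPM in the NaNO3 libraries, against 6636, 5377 and 5293 CPM in the water libraries. Summed over the 575 lower genes, it was 22186, 19379.8 and 16570.4 CPM in the NaNO3 libraries, against 66536, 78882 and 79545 CPM in the water libraries. The direction of both sums is set by the choice of genes, which were called on these same libraries. With water, the lower genes summed to a higher level than the higher genes did in any library. Of the lower genes 439 fell at least 2-fold, against 68 of the higher genes that rose at least 2-fold. Adjusted p-values of called genes ran from 0.0210 to 0.0499, so all calls lie close to the threshold.

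Most calls also need the full set of the other libraries. With water replicate 2 or 3 left out, edgeR called 0 genes in either direction (before adjustment, 959 and 986 genes were higher at a p under 0.05, and 1575 and 1618 lower). With NaNO3 replicate 2 or 3 left out it called 0 higher and 1 lower (1900 and 1708 higher, 1692 and 1564 lower unadjusted), the single lower genes being NewGene_1992 and BC629DRAFT_1457786, which carry no product name and were picked out after their values were seen. Hence each call of a gene named below is lost in those fits, and this is not repeated at each gene. Without water replicate 1, 108 genes were higher and 278 lower, and without NH4Cl replicate 2, 56 and 376. With DESeq2 in place of edgeR, 882 genes were higher (5.96%) and 1043 lower (7.04%), with voom 763 (5.15%) and 1521 (10.3%), and with limma on FPKM 50 (0.357% of 14023) and 350 (2.5%). In the authors' deposited table, at a false discovery rate of 0.01 and a fold of 2, 143 genes were higher and 516 lower. Of these 70 and 401 are also called here, 49.0% and 77.7% of the authors' lists and 40.2% and 69.7% of those here.

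The question for the nitrogen genes is whether transcripts for using nitrate follow its addition. Among 7 tested genes for nitrate and nitrite use edgeR called 0 in either direction, with 3 higher at an unadjusted p under 0.05; DESeq2 called 1 higher, voom with quality weights 2 higher and limma on FPKM 0. The nitrate transporter (BC629DRAFT_1580917), which brings nitrate into the cell, stood at 4.87, 5.01 and 8.32 CPM with NaNO3, against 4.16, 1.80 and 1.23 CPM with water (log2 1.33 ± 0.45, adjusted p = 0.118). All NaNO3 libraries lay above all water libraries, but the spread within water was wide. The nitrate reductase BC629DRAFT_1283050 stood at 47.3, 68.7 and 64.9 CPM with NaNO3, against 38.8, 33.0 and 30.0 CPM with water (log2 0.83 ± 0.35, adjusted p = 0.186), again without overlap. A further nitrate reductase gene, BC629DRAFT_53870, stood at 39.4, 33.9 and 42.0 CPM with NaNO3, against 21.9, 26.1 and 28.1 CPM with water (log2 0.60 ± 0.26, adjusted p = 0.195), with the groups apart as well.

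Nitrite reductase (BC629DRAFT_1591045), which makes ammonium from nitrite, lay the other way, at 32.1, 40.0 and 45.8 CPM with NaNO3, against 48.5, 47.1 and 47.0 CPM with water (log2 −0.27 ± 0.16, adjusted p = 0.309), every NaNO3 library being below every water library. With NaNO3 replicate 1 left out of the joint fit these 4 genes stayed uncalled: the log2 fold change was 1.47 ± 0.49, adjusted p = 0.134, for the transporter, and 0.98 ± 0.38, adjusted p = 0.182, for the first reductase. In the fit of the 5 other NaNO3 and water libraries alone, BC629DRAFT_1283050 was called (adjusted p = 0.0198), while the transporter (adjusted p = 0.126), the further reductase gene and nitrite reductase were not. The remaining genes with a nitrate reductase product name carry a sulfite oxidase entry in the KEGG column, sulfite oxidase being a related molybdenum enzyme. Of these BC629DRAFT_1591999 was the most spread, at 59.3, 127 and 86.7 CPM with NaNO3, against 175, 114 and 167 CPM with water (log2 −0.74 ± 0.42, adjusted p = 0.314). One more gene of this name, BC629DRAFT_1282858, had 0 counts in all 6 libraries. The list of genes for the molybdenum cofactor, used by nitrate reductase, or for siroheme, used by nitrite reductase, gave a median log2 fold change of −0.12 over 4 genes, against −0.03 over all genes tested. Not every gene of this list need serve these reductases. Without replicate 1 that median was 0.11, so its sign turns on this library, and 0 of the 4 were called either way.

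The lists for urea and purine use and for ammonium uptake and assimilation held 1 call between them. Of 12 tested genes for urea and purine use, 1 rose, with 7 higher at an unadjusted p under 0.05 and a median log2 fold change of 0.63 (0.57 without replicate 1). The gene that rose is a urea transporter (BC629DRAFT_1277323), which takes up urea together with protons, at 84.6, 46.9 and 54.8 CPM with NaNO3, against 29.0, 25.6 and 21.2 CPM with water (log2 1.30 ± 0.25, adjusted p = 0.0279). It stayed called without replicate 1, the highest of its group (log2 1.01 ± 0.19, adjusted p = 0.0413). A further gene of the same name, BC629DRAFT_1714697, was not called and its groups overlapped. It stood at 58.0, 97.0 and 94.9 CPM with NaNO3, against 56.8, 69.3 and 36.7 CPM with water (log2 0.62 ± 0.28, adjusted p = 0.218). Urease (NewGene_857), which splits urea into ammonium and carbon dioxide, stood at 27.5, 27.5 and 23.1 CPM with NaNO3, against 16.2, 17.2 and 12.3 CPM with water (log2 0.77 ± 0.20, adjusted p = 0.0640) and was not called, although its groups did not overlap. The same held for a further urease gene, BC629DRAFT_1282635 (log2 0.76 ± 0.26, adjusted p = 0.122). An accessory protein of urease assembly, ureG-like (BC629DRAFT_1714520), was likewise apart but uncalled, at 15.5, 20.2 and 18.7 CPM with NaNO3, against 6.38, 8.70 and 1.84 CPM with water (log2 1.68 ± 0.45, adjusted p = 0.0685). Allantoin permease (BC629DRAFT_1283549) lay the other way, at 1.14, 2.25 and 0.997 CPM with NaNO3, against 3.37, 3.45 and 4.25 CPM with water (log2 −1.34 ± 0.37, adjusted p = 0.0735). In this list DESeq2 called 5 higher and 1 lower, voom 3 higher and 1 lower, and limma on FPKM 0. With the 6 NaNO3 and water libraries alone edgeR called 0.

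Among 9 tested genes for ammonium uptake and assimilation edgeR called 0 (unadjusted, 3 were higher and 2 lower; by DESeq2 0 were called, by voom 1 lower and by limma on FPKM 0). An ammonium transporter (NewGene_3477) stood at 519, 392 and 397 CPM with NaNO3, against 253, 341 and 30.8 CPM with water, so the NaNO3 libraries lay above all water libraries, and water replicate 3 lay far below its mates. Glutamine synthetase, which joins ammonium to glutamate, is listed as a pair of near-identical copies that are not sure to be separate results. Of them BC629DRAFT_780516 stood at 567, 646 and 562 CPM with NaNO3, against 509.6, 408 and 297 CPM with water (log2 0.55 ± 0.22, adjusted p = 0.175). A gene without a product name but with a glutamine synthetase KEGG entry, BC629DRAFT_1596891, counted in the amino acid list, rose at 23.5, 15.5 and 12.7 CPM with NaNO3, against 7.44, 5.15 and 4.13 CPM with water (log2 1.63 ± 0.34, adjusted p = 0.0371). It was not called without replicate 1 (log2 1.34 ± 0.33, adjusted p = 0.0675).

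In the synthesis of amino acids, 9 of 149 tested genes rose (6.04%, against 1.18% of all genes tested) and 3 fell (2.01%, against 3.88%). Before adjustment 30 were higher and 8 lower at a p under 0.05, against 10.8% and 14.0% of all genes tested. Without replicate 1, 6 rose and 2 fell. The median log2 fold change was 0.16. Of the higher genes 5 are enzymes of glycolysis that KEGG also places in amino acid synthesis. The others include argininosuccinate lyase (BC629DRAFT_1015859), the last step of arginine synthesis, at 98.0, 115 and 97.3 CPM with NaNO3, against 75.2, 55.7 and 60.0 CPM with water (log2 0.70 ± 0.16, adjusted p = 0.0460). Gamma-glutamyl phosphate reductase (BC629DRAFT_1578268), on the path from glutamate to proline, stood at 31.0, 35.1 and 31.4 CPM with NaNO3, against 23.1, 20.7 and 22.2 CPM with water (log2 0.56 ± 0.13, adjusted p = 0.0431). An S-adenosylmethionine synthetase entry (BC629DRAFT_1560371), for the methyl donor of the cell, stood at 65.5, 84.1 and 70.2 CPM with NaNO3, against 45.7, 43.2 and 42.0 CPM with water (log2 0.75 ± 0.17, adjusted p = 0.0429). In these 3 genes the libraries of each group were tightly placed, and only the last stayed called without replicate 1 (log2 0.83 ± 0.17, adjusted p = 0.0479).

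Some amino acid genes were called only without NaNO3 replicate 1, where that library sat below its mates. Homocysteine synthase (BC629DRAFT_1580796), which fixes sulfide into amino acids in fungi, stood at 752, 5863 and 7581 CPM with NaNO3, against 3189, 2125 and 1380.2 CPM with water. Its log2 fold change was 1.59 ± 0.34, adjusted p = 0.0477 without replicate 1, and 1.08 ± 0.69, adjusted p = 0.364 with it. Homoserine O-acetyltransferase (BC629DRAFT_1580486), which makes the substrate of that enzyme, stood at 24.0, 111 and 78.3 CPM with NaNO3, against 44.1, 45.3 and 41.5 CPM with water, and the log2 fold change without replicate 1 was 1.13 ± 0.23, adjusted p = 0.0444. In both genes replicate 1 lay below its mates and below all water libraries. Subunits of the arginine-specific carbamoyl-phosphate synthase showed it too: BC629DRAFT_1280497 stood at 68.5, 131 and 153 CPM with NaNO3, against 62.0, 35.6 and 64.0 CPM with water (log2 without replicate 1 1.40 ± 0.27, adjusted p = 0.0418), while NewGene_1653 gave 1.45 ± 0.30, adjusted p = 0.0467. L-pipecolate oxidase (BC629DRAFT_453275), a peroxisomal enzyme of lysine breakdown, stood at 15.2, 40.8 and 27.8 CPM with NaNO3, against 14.0, 12.2 and 13.6 CPM with water (log2 without replicate 1 1.38 ± 0.26, adjusted p = 0.0413).

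Glutamate decarboxylase (BC629DRAFT_1588175), which turns glutamate into gamma-aminobutyrate, was among the largest rises of a named gene, at 290.5, 198 and 192 CPM with NaNO3, against 101, 70.5 and 80.7 CPM with water (log2 1.43 ± 0.23, adjusted p = 0.0222). It stayed called without replicate 1, which was its highest library (log2 1.21 ± 0.19, adjusted p = 0.0342). An oxidase named ucsJ (BC629DRAFT_530169), whose role in this fungus is not known, stood at 788, 747 and 825 CPM with NaNO3, against 407, 305 and 237 CPM with water (log2 1.31 ± 0.29, adjusted p = 0.0436). It was not called without replicate 1, although its fold barely moved (log2 1.32 ± 0.31, adjusted p = 0.0639). The histone H2A gene BC629DRAFT_1294244, a chromatin protein, stood at 327, 206 and 254 CPM with NaNO3, against 151, 95.4 and 96.1 CPM with water (log2 1.20 ± 0.26, adjusted p = 0.0379; 1.01 ± 0.24, adjusted p = 0.0643, without replicate 1).

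**Figure D2:**
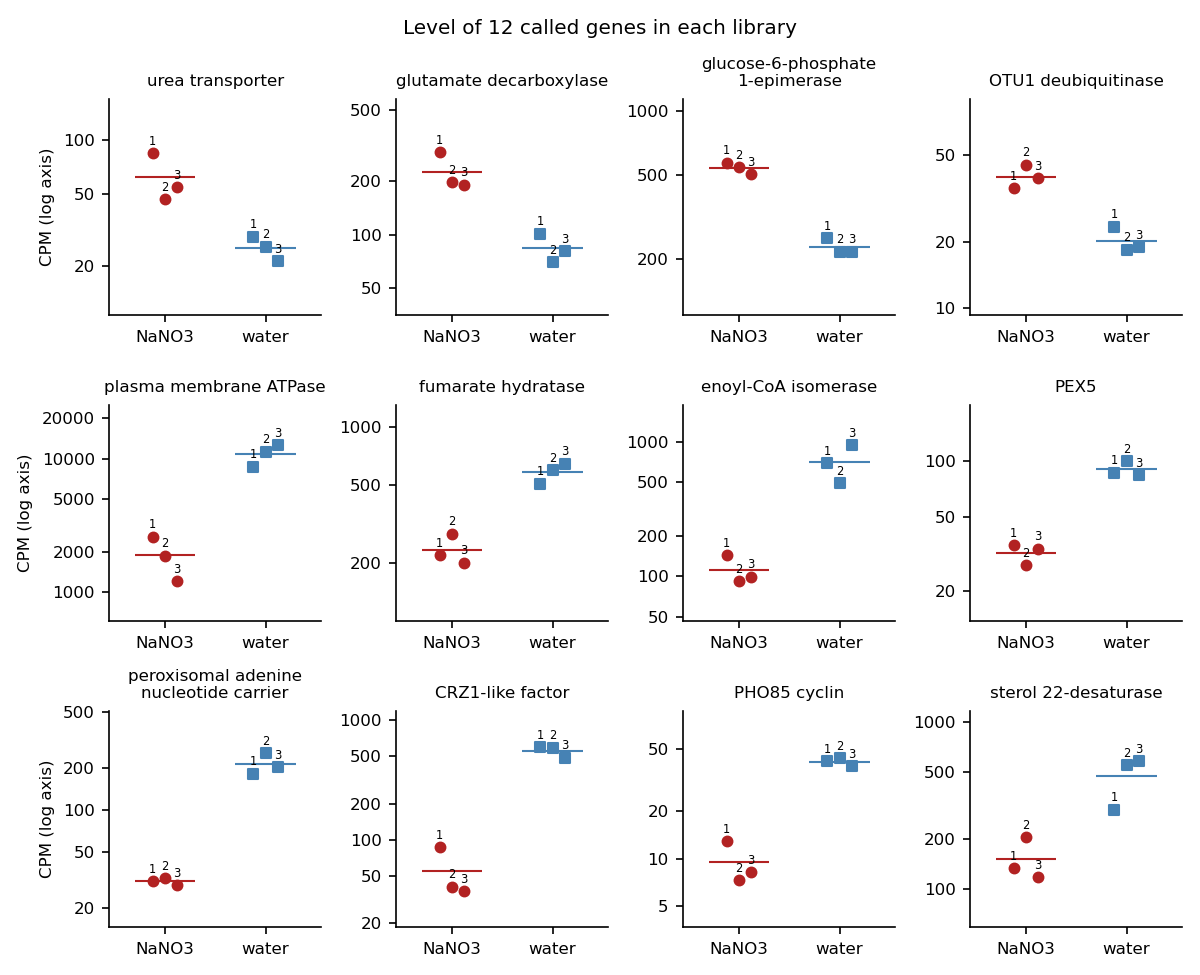
CPM (log axes) of 12 called genes in each NaNO3 library (circles, left) and water library (squares, right); numbers give the replicate and lines the group mean. In all 12 panels the groups do not overlap, 4 genes being higher and 8 lower with NaNO3.

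Genes of sugar breakdown were called in both directions. Of 46 tested genes of glycolysis and gluconeogenesis, 7 rose and 2 fell, the median log2 fold change being 0.44 (0.36 without replicate 1, when 4 rose and 1 fell). With 9 libraries these were 15.2% and 4.35%, against 1.18% and 3.88% of all genes tested, so the lower share was near that of all genes. The 7 that rose act on sugar phosphates or make pyruvate. Glucose-6-phosphate 1-epimerase (BC629DRAFT_1468194), which interconverts the forms of glucose 6-phosphate, stood at 570.3, 542 and 502 CPM with NaNO3, against 250.4, 216 and 216 CPM with water (log2 1.24 ± 0.23, adjusted p = 0.0272; 1.20 ± 0.24, adjusted p = 0.0441, without replicate 1). The triosephosphate isomerase BC629DRAFT_1461270 stood at 37.6, 27.8 and 20.4 CPM with NaNO3, against 13.1, 7.90 and 7.60 CPM with water (log2 1.58 ± 0.29, adjusted p = 0.0259; 1.34 ± 0.27, adjusted p = 0.0456, without replicate 1). Hexokinase-2 (NewGene_3213), which phosphorylates glucose at entry, stood at 74.6, 59.2 and 56.7 CPM with NaNO3, against 38.6, 35.9 and 32.6 CPM with water (log2 0.83 ± 0.17, adjusted p = 0.0361). A gene with the entry of the 2,3-bisphosphoglycerate-independent phosphoglycerate mutase (BC629DRAFT_1594087), between phosphoglycerate kinase and enolase, stood at 199.7, 93.3 and 85.5 CPM with NaNO3, against 52.5, 35.8 and 29.1 CPM with water (log2 1.69 ± 0.38, adjusted p = 0.0438). NaNO3 replicate 1 was the highest library in all 7, and hexokinase-2, the mutase and phosphoglycerate kinase (BC629DRAFT_1478689) were not called without it.

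The 2 genes of the list that fell encode the E1 subunits of pyruvate dehydrogenase, the enzyme complex that passes pyruvate to the citrate cycle as acetyl-CoA. Its alpha subunit (BC629DRAFT_1596897) stood at 169, 163 and 157 CPM with NaNO3, against 261, 277 and 269.8 CPM with water (log2 −0.72 ± 0.17, adjusted p = 0.0468). The beta subunit (BC629DRAFT_1528516) stood at 124, 105 and 94.4 CPM with NaNO3, against 163, 183 and 213 CPM with water (log2 −0.78 ± 0.18, adjusted p = 0.0436). Both were tight within groups; without replicate 1 the beta subunit stayed called (log2 −0.90 ± 0.18, adjusted p = 0.0460) and the alpha subunit did not (log2 −0.75 ± 0.19, adjusted p = 0.0699). Neither was called with size factors in place of TMM, with limma on FPKM or with the 6 NaNO3 and water libraries alone, the glycolysis list then holding 7, 3 and 4 higher and 0 lower calls.

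In the citrate cycle list, which holds the same pair, 5 of 37 tested genes fell (13.5%, against 3.88% of all genes tested). At an unadjusted p under 0.05, 13 of the 37 were lower, against 14.0% of all genes. Fumarate hydratase (BC629DRAFT_1588922), which makes malate, stood at 219, 283 and 200.3 CPM with NaNO3, against 509, 598 and 647 CPM with water (log2 −1.32 ± 0.25, adjusted p = 0.0270; −1.27 ± 0.28, adjusted p = 0.0543, without replicate 1). The other lower genes carry the product name 2-methylcitrate synthase, of propionate breakdown, and the KEGG entry of citrate synthase, and BC629DRAFT_670665 stood at 26.8, 28.0 and 28.9 CPM with NaNO3, against 71.7, 69.2 and 53.0 CPM with water (log2 −1.21 ± 0.25, adjusted p = 0.0341). Without replicate 1 only the pyruvate dehydrogenase beta subunit was left of the 5 calls.

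Of 101 tested genes of oxidative phosphorylation, 5 fell and 2 rose, and without replicate 1, 4 fell and 0 rose. The 9-library shares, 4.95% and 1.98%, were near the 3.88% and 1.18% of all genes tested. Before adjustment 14 of the 101 were lower at a p under 0.05, against 14.0% of all genes. Among the 5 that fell is the plasma membrane ATPase (BC629DRAFT_1442883), which KEGG lists here but which pumps protons out of the cell and powers uptake across the plasma membrane. It stood at 2610.4, 1873 and 1209.8 CPM with NaNO3, against 8696, 11272 and 12598 CPM with water (log2 −2.52 ± 0.48, adjusted p = 0.0275), and no library of one group came within 3-fold of the other. It stayed called without replicate 1 (log2 −2.81 ± 0.51, adjusted p = 0.0410). The called genes of the respiratory chain fell by less: the complex I 51 kDa subunit (NewGene_968) stood at 69.5, 67.5 and 65.4 CPM with NaNO3, against 99.9, 97.0 and 96.9 CPM with water (log2 −0.54 ± 0.13, adjusted p = 0.0493; −0.56 ± 0.14, adjusted p = 0.0751, without replicate 1). Subunit 2 of complex III (BC629DRAFT_1498276) stood at 119, 102 and 108 CPM with NaNO3, against 209, 209 and 160.0 CPM with water (log2 −0.82 ± 0.17, adjusted p = 0.0371; −0.88 ± 0.19, adjusted p = 0.0476, without replicate 1). A cytochrome c oxidase assembly protein, COX15 (BC629DRAFT_1290782), gave −0.59 ± 0.14, adjusted p = 0.0498. The genes that rose are both inorganic pyrophosphatases, which clear the pyrophosphate released in biosynthesis. Of them BC629DRAFT_1517496 stood at 611, 549 and 402 CPM with NaNO3, against 338, 237 and 240.0 CPM with water (log2 0.94 ± 0.22, adjusted p = 0.0487), and neither was called without replicate 1.

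Cytochrome c itself (BC629DRAFT_1518035), the electron carrier before the terminal oxidase, stood at 244, 129 and 89.4 CPM with NaNO3, against 461, 534 and 643 CPM with water. It was called only without replicate 1 (log2 −2.32 ± 0.45, adjusted p = 0.0413 without it; −1.83 ± 0.46, adjusted p = 0.0554 with it). So was a mitochondrial phosphate carrier (BC629DRAFT_1729325), at 492, 270.2 and 241 CPM with NaNO3, against 756, 994 and 889 CPM with water (log2 −1.78 ± 0.30, adjusted p = 0.0388 without it; −1.40 ± 0.34, adjusted p = 0.0536 with it). In both, replicate 1 lay between its mates and the water libraries. Ribosomal proteins of the mitochondrion gave 1 lower call in 37 tested genes (2.7%, against 3.88% of all genes tested), and 0 without replicate 1. Before adjustment 15 were lower and 0 higher at a p under 0.05, against 14.0% and 10.8% of all genes. Their median log2 fold change was −0.31. The mitochondrial chaperonin HSP60 (BC629DRAFT_1442395), which folds imported proteins, fell and stood at 57.1, 68.5 and 74.0 CPM with NaNO3, against 146, 167 and 149.6 CPM with water (log2 −1.21 ± 0.21, adjusted p = 0.0235; −1.11 ± 0.23, adjusted p = 0.0460, without replicate 1).

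The lists of fatty acid degradation and the peroxisome held 13 and 17 of the 575 lower genes. Fatty acids are activated by acyl-CoA synthetases and shortened by beta-oxidation, which in fungi runs largely in peroxisomes, whose enzymes are imported by peroxins. Of 65 tested genes of fatty acid degradation 13 fell (20.0%, against 3.88% of all genes tested), 5 of them cytochrome P450 genes. Before adjustment 24 were lower and 1 higher at a p under 0.05, against 14.0% and 10.8% of all genes. The median log2 fold change was −0.38. Of 87 tested peroxisome genes 17 fell (19.5%), 8 of them in both lists, and the median was −0.13, against −0.03 over all genes tested. Without replicate 1, 9 and 8 fell. Summed over each list, the groups overlapped. Fatty acid degradation stood at 5475, 11871 and 10287 CPM with NaNO3, against 11911, 10889 and 11807 CPM with water. The peroxisome list stood at 11673, 23976 and 21678.5 CPM with NaNO3, against 19531, 13777 and 15803 CPM with water.

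The 3,2-trans-enoyl-CoA isomerase (BC629DRAFT_1587930), needed to break down unsaturated fatty acids, stood at 144, 92.1 and 98.9 CPM with NaNO3, against 694, 494 and 939 CPM with water (log2 −2.67 ± 0.35, adjusted p = 0.0210; −2.89 ± 0.39, adjusted p = 0.0286, without replicate 1). The peroxisomal 3-ketoacyl-CoA thiolase (BC629DRAFT_1276227), the last step of a round of beta-oxidation, stood at 139, 173 and 162 CPM with NaNO3, against 291, 309 and 336 CPM with water (log2 −0.98 ± 0.18, adjusted p = 0.0259; −0.89 ± 0.19, adjusted p = 0.0469, without replicate 1). Among the acyl-CoA synthetases, a family singled out after values were seen, 6 of 9 tested genes fell (3 without replicate 1), but 4 of these are neighbouring new-gene models that share a region and are not sure to be separate results. Their most distinct member, long-chain-fatty-acid-CoA ligase 2 (BC629DRAFT_1589998), stood at 54.3, 47.9 and 51.1 CPM with NaNO3, against 83.5, 92.8 and 92.5 CPM with water (log2 −0.81 ± 0.15, adjusted p = 0.0259; −0.85 ± 0.17, adjusted p = 0.0427, without replicate 1). The groups did not overlap in any of these genes.

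The peroxisomal adenine nucleotide carrier (BC629DRAFT_1517732), named from its KEGG entry and known to bring ATP into peroxisomes for fatty acid activation, stood at 31.0, 32.7 and 28.9 CPM with NaNO3, against 182, 256 and 202 CPM with water (log2 −2.79 ± 0.47, adjusted p = 0.0222; −2.79 ± 0.57, adjusted p = 0.0460, without replicate 1). D-amino-acid oxidase (BC629DRAFT_1499854), a peroxisomal enzyme that releases hydrogen peroxide, stood at 11.5, 8.79 and 13.8 CPM with NaNO3, against 73.8, 65.3 and 52.6 CPM with water (log2 −2.49 ± 0.49, adjusted p = 0.0312; −2.50 ± 0.60, adjusted p = 0.0656, without replicate 1). Both sets of NaNO3 libraries were close together and far from water. Among the peroxins, also singled out after values were seen, 5 of 22 tested genes fell, and 2 without replicate 1. Peroxin-5, the receptor that carries enzymes to the peroxisome, is listed under more than one gene: BC629DRAFT_1436708 stood at 80.5, 66.3 and 65.4 CPM with NaNO3, against 151, 148 and 158 CPM with water (log2 −1.11 ± 0.16, adjusted p = 0.0210). Its further gene, BC629DRAFT_1473385, stood at 35.2, 27.5 and 33.7 CPM with NaNO3, against 86.3, 99.3 and 83.3 CPM with water (log2 −1.48 ± 0.18, adjusted p = 0.0210), and both stayed called without replicate 1. Peroxin-13, part of the docking site, and peroxin-11B, which takes part in dividing the organelle, fell by smaller amounts, BC629DRAFT_1260422 at −0.73 ± 0.14, adjusted p = 0.0295 and BC629DRAFT_855570 at −0.77 ± 0.16, adjusted p = 0.0371, and were not called without replicate 1.

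Fused cytochrome P450-reductases, which hydroxylate fatty acids near the end of the chain and carry their own electron supply, were listed in the same pathway. As a family singled out after values were seen, 5 of 15 tested genes fell, and 4 without replicate 1. The gene BC629DRAFT_1590403 stood at 7.33, 3.04 and 4.68 CPM with NaNO3, against 42.2, 33.3 and 58.5 CPM with water (log2 −3.15 ± 0.49, adjusted p = 0.0222; −3.53 ± 0.55, adjusted p = 0.0342, without replicate 1). Beside it by number, BC629DRAFT_1590402 stood at 6.65, 4.62 and 5.13 CPM with NaNO3, against 34.9, 29.3 and 52.9 CPM with water (log2 −2.83 ± 0.38, adjusted p = 0.0210), and stayed called without replicate 1. In both, the NaNO3 libraries were below 8 CPM and the water libraries above 29 CPM. The gene BC629DRAFT_1596082 of the same family stood at 48.4, 161 and 119.7 CPM with NaNO3, against 114, 169.6 and 184 CPM with water and was not called (log2 −0.51 ± 0.41, adjusted p = 0.474). Over all 158 tested P450 genes, 2 rose and 10 fell, and without replicate 1, 2 rose and 9 fell. With 9 libraries these were 1.27% and 6.33%, against 1.18% and 3.88% of all genes tested, so the higher share was near that of all genes. Of the 10 that fell, 5 are also counted in the fatty acid list. The monooxygenase BC629DRAFT_1056243, whose substrate is not known, rose at 143, 123 and 114 CPM with NaNO3, against 53.5, 55.5 and 44.0 CPM with water (log2 1.31 ± 0.15, adjusted p = 0.0210; 1.22 ± 0.14, adjusted p = 0.0286, without replicate 1).

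**Figure D3:**
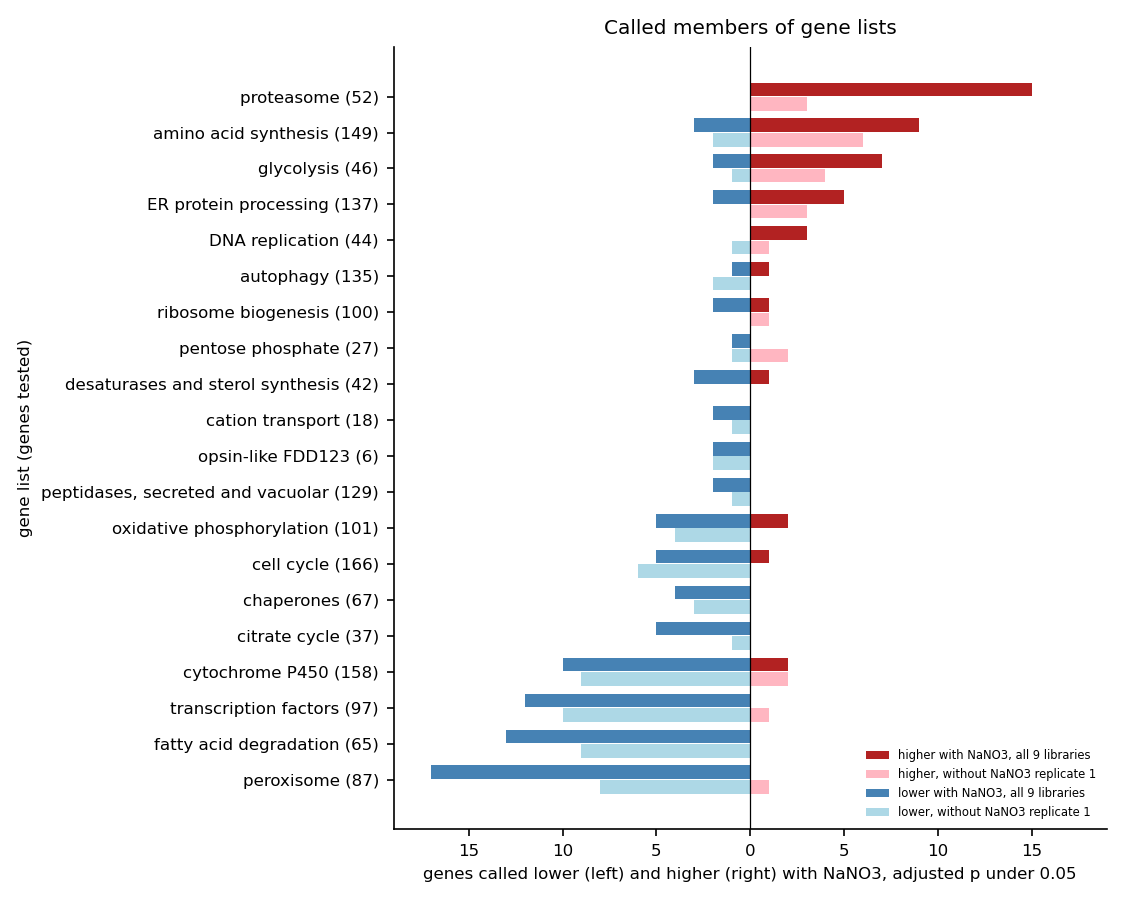
Genes called higher (right) and lower (left) with NaNO3 in each gene list with at least 3 calls in all, with all 9 libraries (dark bars) and without NaNO3 replicate 1 (pale bars); the number of genes tested is in brackets. The proteasome has the most higher calls, 15 of 52, falling to 3 without replicate 1, and the peroxisome the most lower calls, 17 of 87, falling to 8; lists overlap and are not independent.

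Genes of late steps in the synthesis of ergosterol, the sterol of fungal membranes, were among the lower ones. Of 42 tested desaturase and sterol genes, 3 fell (7.14%, against 3.88% of all genes tested) and 1 rose (2.38%, against 1.18%). Without replicate 1, 0 were called. Cytochrome P450 61 (BC629DRAFT_1580530), the sterol 22-desaturase, stood at 134, 204 and 118 CPM with NaNO3, against 299, 553 and 584 CPM with water (log2 −1.66 ± 0.34, adjusted p = 0.0365; −1.57 ± 0.41, adjusted p = 0.0769, without replicate 1). The delta-7-sterol 5-desaturase NewGene_3410 stood at 99.3, 116 and 64.7 CPM with NaNO3, against 156, 267 and 270.4 CPM with water (log2 −1.31 ± 0.28, adjusted p = 0.0399). The further model BC629DRAFT_1646314 kept a nearly fixed ratio to it, may not be a separate result, and gave −1.36 ± 0.28, adjusted p = 0.0353. The gene that rose, a membrane fatty acid desaturase (BC629DRAFT_163522), stood at 41.7, 43.6 and 45.1 CPM with NaNO3, against 25.9, 17.4 and 18.4 CPM with water (log2 1.08 ± 0.22, adjusted p = 0.0351). Serine palmitoyltransferase (BC629DRAFT_1276112), the first step of sphingolipid synthesis, fell and stood at 93.2, 81.6 and 72.6 CPM with NaNO3, against 191, 248 and 229 CPM with water (log2 −1.43 ± 0.22, adjusted p = 0.0222; −1.53 ± 0.25, adjusted p = 0.0361, without replicate 1). Glucosamine 6-phosphate N-acetyltransferase (BC629DRAFT_1290171), on the path to chitin of the cell wall, fell and stood at 22.8, 13.9 and 15.7 CPM with NaNO3, against 133, 132 and 106 CPM with water (log2 −2.82 ± 0.55, adjusted p = 0.0302; −3.06 ± 0.66, adjusted p = 0.0503, without replicate 1).

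**Figure D4:**
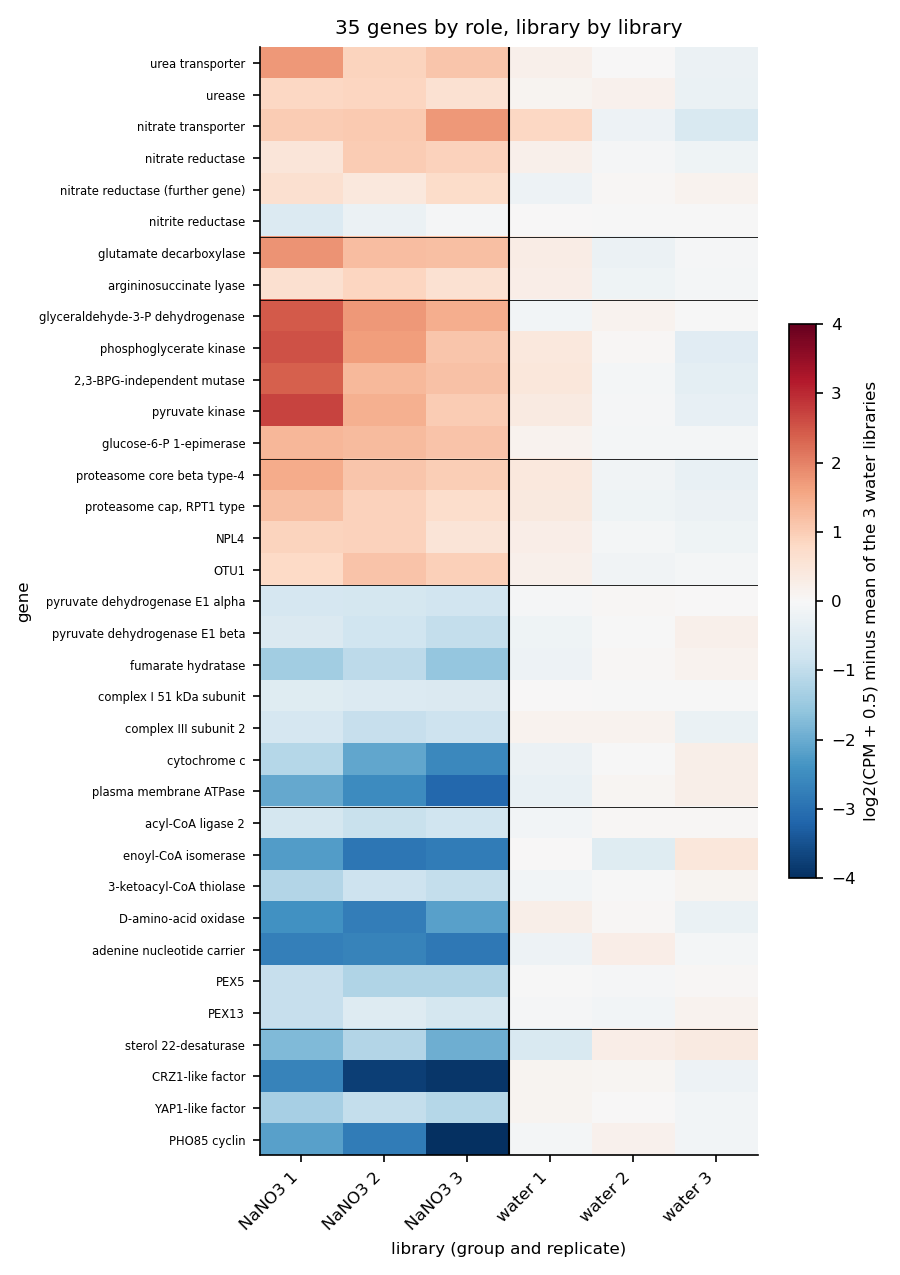
Log2(CPM + 0.5) minus the mean of the 3 water libraries for 35 genes in rows, grouped by role, and the 3 NaNO3 and 3 water libraries in columns; red is above and blue below the water mean. Rows run through nitrogen sources, amino acids, glycolysis, protein breakdown, mitochondrion and proton pump, fatty acids and peroxisome, and sterol, regulators and cyclin; urease, the nitrate genes, nitrite reductase and cytochrome c are shown although not called with all 9 libraries.

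The proteasome list held more higher genes than any other list with 9 libraries, though not without NaNO3 replicate 1. The proteasome degrades ubiquitin-tagged proteins, with a 20S core of alpha and beta subunits and a 19S regulatory particle that unfolds substrates. Of 52 tested proteasome genes, 15 rose with 9 libraries (28.8%, against 1.18% of all genes tested) and 3 without NaNO3 replicate 1. The median log2 fold change was 0.82 with NaNO3 replicate 1 and 0.65 without it. With DESeq2 33 were called higher, with voom 31, with limma on FPKM 5 and with the 6 NaNO3 and water libraries alone 1. Split by KEGG entry, a division made after values were seen, 8 of 20 core genes and 6 of 25 regulatory genes rose, and the 3 calls left without replicate 1 were all of the core. The core subunit beta type-4 (BC629DRAFT_1586899) stood at 109, 84.4 and 76.5 CPM with NaNO3, against 52.4, 35.2 and 31.2 CPM with water (log2 1.18 ± 0.22, adjusted p = 0.0269; 1.03 ± 0.21, adjusted p = 0.0460, without replicate 1). The regulatory subunit 7 (BC629DRAFT_1589788), an ATPase of the base, stood at 274, 223 and 195 CPM with NaNO3, against 157, 105 and 101 CPM with water (log2 0.93 ± 0.22, adjusted p = 0.0463; 0.79 ± 0.21, adjusted p = 0.0800, without replicate 1). The assembly factor UMP1 (BC629DRAFT_1590048), needed to mature the core, stood at 11.7, 8.62 and 10.7 CPM with NaNO3, against 6.60, 4.15 and 4.69 CPM with water (log2 1.00 ± 0.21, adjusted p = 0.0371; 0.90 ± 0.22, adjusted p = 0.0700, without replicate 1). Replicate 1 was the highest NaNO3 library in each.

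Genes for 3 likely cofactors of the Cdc48 segregase, which pulls tagged proteins out of membranes and complexes, were picked out with values in view and rose with 9 libraries. NPL4 (BC629DRAFT_91583) stood at 66.7, 68.6 and 51.2 CPM with NaNO3, against 43.4, 33.4 and 31.3 CPM with water (log2 0.79 ± 0.18, adjusted p = 0.0438; 0.74 ± 0.19, adjusted p = 0.0795, without replicate 1). The deubiquitinase OTU1 (BC629DRAFT_699237) stood at 35.2, 45.2 and 39.1 CPM with NaNO3, against 23.5, 18.4 and 18.9 CPM with water (log2 0.97 ± 0.16, adjusted p = 0.0222) and stayed called without replicate 1, its lowest library (log2 1.06 ± 0.16, adjusted p = 0.0342). A UBX-domain gene (BC629DRAFT_1539760), of a family that binds Cdc48, stood at 87.1, 81.4 and 73.6 CPM with NaNO3, against 51.4, 41.9 and 47.6 CPM with water (log2 0.78 ± 0.14, adjusted p = 0.0238; 0.73 ± 0.14, adjusted p = 0.0430, without replicate 1). These were counted in the list of protein processing in the endoplasmic reticulum, where 5 of 137 tested genes rose and 2 fell. These were 3.65% and 1.46%, against 1.18% and 3.88% of all genes tested, and without replicate 1, 3 rose and 0 fell. Both that fell are small heat shock proteins of the HSP20 family, which hold unfolded proteins. Of them BC629DRAFT_1434683 stood at 4.42, 8.28 and 6.68 CPM with NaNO3, against 40.7, 53.6 and 36.6 CPM with water (log2 −2.76 ± 0.53, adjusted p = 0.0293; −2.54 ± 0.61, adjusted p = 0.0661, without replicate 1). Of 67 tested chaperones 4 fell (5.97%, against 3.88% of all genes tested), and 3 without replicate 1. Among them was the disaggregase HSP104 (BC629DRAFT_1279522), at 56.2, 42.6 and 43.2 CPM with NaNO3, against 75.5, 76.0 and 80.4 CPM with water (log2 −0.71 ± 0.14, adjusted p = 0.0350, and −0.85 ± 0.13, adjusted p = 0.0342, without replicate 1). Ubiquitin conjugation, with 91 tested genes, had 1 lower call, and autophagy, with 135, had 1 higher and 1 lower, and without replicate 1 the counts were 1 lower for conjugation and 0 higher and 2 lower for autophagy.

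Transcription factors called with 9 libraries were all lower: 12 of 97 tested fell (12.4%, against 3.88% of all genes tested). Without NaNO3 replicate 1, 10 fell and 1 rose. The CRZ1-like factor (BC629DRAFT_1715047), which in yeast answers to calcium through calcineurin, stood at 86.0, 40.4 and 37.0 CPM with NaNO3, against 594, 586 and 483 CPM with water (log2 −3.35 ± 0.64, adjusted p = 0.0281; −3.84 ± 0.72, adjusted p = 0.0413, without replicate 1). The zinc finger factor dvrA-like (BC629DRAFT_1281244) stood at 20.6, 8.67 and 8.72 CPM with NaNO3, against 61.4, 66.6 and 94.0 CPM with water (log2 −2.54 ± 0.39, adjusted p = 0.0221; −3.09 ± 0.30, adjusted p = 0.0229, without replicate 1). In both, replicate 1 was the highest NaNO3 library and still below all water libraries. The YAP1-like factor (BC629DRAFT_1282116), which in yeast controls the response to oxidants, stood at 172, 227 and 195 CPM with NaNO3, against 466, 442 and 400.4 CPM with water (log2 −1.14 ± 0.22, adjusted p = 0.0294; −1.04 ± 0.24, adjusted p = 0.0568, without replicate 1). A response regulator of the prr1 kind is split over 3 models that move as one, of which BC629DRAFT_1281419 stood at 81.7, 48.7 and 44.2 CPM with NaNO3, against 123, 161 and 153 CPM with water (log2 −1.32 ± 0.24, adjusted p = 0.0259; −1.65 ± 0.17, adjusted p = 0.0229, without replicate 1). The cbf11-like factor (BC629DRAFT_1442421) was called higher only without replicate 1, at 1017, 1818 and 1729.9 CPM with NaNO3, against 1020.4, 859.6 and 775 CPM with water (log2 1.01 ± 0.18, adjusted p = 0.0400 without it; 0.78 ± 0.26, adjusted p = 0.113 with it). RGT1-like (BC629DRAFT_1515137) and SFP1-like (BC629DRAFT_1437891) factors had the largest falls of the list, −4.05 ± 0.80, adjusted p = 0.0314 and −4.41 ± 0.72, adjusted p = 0.0222.

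PHO85 cyclins, which in yeast steer a kinase that senses phosphate and nutrients, were a family picked out after values were seen. Of 17 tested genes with such an entry 5 fell, and 5 without replicate 1. The gene BC629DRAFT_1241625 stood at 323, 213 and 87.5 CPM with NaNO3, against 1397, 1665 and 1363 CPM with water (log2 −2.83 ± 0.58, adjusted p = 0.0347; −3.29 ± 0.63, adjusted p = 0.0413, without replicate 1). A near-identical model, NewGene_1074, is not a sure separate result. The cyclin BC629DRAFT_1595109 stood at 13.0, 7.32 and 8.22 CPM with NaNO3, against 41.8, 43.7 and 39.0 CPM with water (log2 −2.12 ± 0.34, adjusted p = 0.0222; −2.41 ± 0.37, adjusted p = 0.0342, without replicate 1). Other members stood level, such as BC629DRAFT_1538024 at 209.7, 195 and 217 CPM with NaNO3, against 204, 201 and 189.9 CPM with water (log2 0.06 ± 0.13, adjusted p = 0.806). These cyclins make up all the lower calls of the cell cycle list, 5 of 166 tested with 9 libraries. That is 3.01% of the list, near the 3.88% of all genes tested, and without replicate 1, 6 of the list were called lower. In DNA replication 3 of 44 tested genes rose with 9 libraries (6.82%, against 1.18% of all genes tested). Without replicate 1, 1 rose and 1 fell, the replication licensing factor mcm3 (BC629DRAFT_1284139, log2 −0.78 ± 0.14, adjusted p = 0.0406, and −0.45 ± 0.23, adjusted p = 0.263, with replicate 1). Among the 3 was replication factor C subunit 3 (BC629DRAFT_1292342), part of the loader of the replication clamp, at 10.1, 9.74 and 11.0 CPM with NaNO3, against 6.78, 7.00 and 5.92 CPM with water (log2 0.64 ± 0.13, adjusted p = 0.0342; 0.66 ± 0.14, adjusted p = 0.0515, without replicate 1).

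Among genes of membrane transporters more were called lower than higher. Of 167 tested transporters of the major facilitator type, a family picked out after values were seen, 2 rose and 13 fell, and without replicate 1, 2 rose and 8 fell. With 9 libraries these were 1.2% and 7.78%, against 1.18% and 3.88% of all genes tested, so the higher share was that of all genes. The vrtL-like efflux pump (BC629DRAFT_1590918) stood at 6.33, 9.86 and 6.93 CPM with NaNO3, against 47.9, 74.4 and 68.7 CPM with water (log2 −3.05 ± 0.48, adjusted p = 0.0222; −2.92 ± 0.58, adjusted p = 0.0438, without replicate 1). The fnx1-like transporter (NewGene_1432), of a family that moves amino acids and drugs, rose and stood at 304, 171 and 247 CPM with NaNO3, against 116, 81.5 and 85.9 CPM with water (log2 1.35 ± 0.24, adjusted p = 0.0235; 1.15 ± 0.21, adjusted p = 0.0413, without replicate 1). The opsin-like FDD123 family, of membrane proteins with no sure role, had 2 lower calls of 6 tested in both fits, with a median log2 fold change of −1.38. Its summed level was 539.9, 1961 and 1741 CPM in the NaNO3 libraries, against 5909, 7495 and 8194 CPM in the water libraries. The member BC629DRAFT_1435165 stood at 195, 1543 and 1543 CPM with NaNO3, against 1977, 1535 and 1936 CPM with water and was not called (log2 −0.73 ± 0.70, adjusted p = 0.549), NaNO3 replicate 1 being far below all other libraries.

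Of 25 tested genes with the product name of a defence against oxidants 1 was called, a glutaredoxin (BC629DRAFT_1279888), which reduces disulfides with glutathione. It rose and stood at 72.0, 94.2 and 76.9 CPM with NaNO3, against 54.8, 40.6 and 35.8 CPM with water (log2 0.89 ± 0.18, adjusted p = 0.0365; 0.97 ± 0.20, adjusted p = 0.0441, without replicate 1). The manganese superoxide dismutase BC629DRAFT_1283329 stood at 1929.9, 2333 and 1715 CPM with NaNO3, against 1234, 1111 and 1014 CPM with water (log2 0.83 ± 0.25, adjusted p = 0.0896), apart but not called. A gene without a product name but with the KEGG entry of an iron or manganese superoxide dismutase, BC629DRAFT_1527404, picked out after values were seen, fell and stood at 21.5, 25.6 and 25.7 CPM with NaNO3, against 40.8, 44.1 and 31.6 CPM with water (log2 −0.68 ± 0.16, adjusted p = 0.0479; −0.60 ± 0.17, adjusted p = 0.0969, without replicate 1). In the pentose phosphate pathway, which makes NADPH for biosynthesis and for reducing glutathione, 1 of 27 tested genes fell (without replicate 1, 2 rose and 1 fell), and before adjustment 12 were higher and 2 lower at that threshold. Glucose-6-phosphate dehydrogenase (BC629DRAFT_1706912), its entry step, stood at 426, 531 and 512 CPM with NaNO3, against 344, 272 and 254 CPM with water (log2 0.76 ± 0.19, adjusted p = 0.0532) and was called without replicate 1 (log2 0.85 ± 0.17, adjusted p = 0.0456).

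Whether transcripts of wood-decay enzymes differ with nitrate is a further question of the design. By edgeR 0 of 15 class II peroxidases, 0 of 12 oxidases that make hydrogen peroxide, 0 of 30 cellulases and oxidative cellulose enzymes and 0 of 42 hemicellulases and pectinases were called, with all 9 libraries or without NaNO3 replicate 1. At an unadjusted p under 0.05 these lists held 0, 2, 0 and 3 higher and 0, 0, 0 and 2 lower genes. DESeq2 called 1 oxidase higher and 1 hemicellulase lower, edgeR on the 6 NaNO3 and water libraries alone called 1 cellulase or oxidative cellulose gene lower, and voom and limma on FPKM called 0 in these 4 lists.

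Levels in these lists turned on NaNO3 replicate 1. The class II peroxidases, which oxidise lignin, summed to 7492, 72300.1 and 61129 CPM in the NaNO3 libraries, against 57033, 61249.7 and 46919.8 CPM in the water libraries. NaNO3 replicates 2 and 3 lay at or near the top of the range and replicate 1 far below every other library. The oxidases that supply them with hydrogen peroxide summed to 1626, 23362 and 17493 CPM in the NaNO3 libraries, against 17019.6, 17549 and 16786 CPM in the water libraries, the same picture. Cellulases and oxidative cellulose enzymes, which act on the sugar polymer, lay the other way in replicate 1, at 3735, 417 and 2105 CPM in the NaNO3 libraries, against 1004, 1440.2 and 271 CPM in the water libraries, but NaNO3 replicate 2 and water replicate 3 were also far from their mates.

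Single genes of replicate 1 were far from all others. Beta-glucosidase 1B (BC629DRAFT_364879), which frees glucose from cellobiose, stood at 4270.3, 39.6 and 450.1 CPM with NaNO3, against 111, 111 and 33.4 CPM with water. Cytochrome b2 (BC629DRAFT_1587695), a lactate dehydrogenase of the mitochondrion, stood at 575, 8.45 and 26.1 CPM with NaNO3, against 20.0, 10.5 and 9.11 CPM with water. The versatile peroxidase VPL1 gene BC629DRAFT_1293608 stood at 18.7, 2567 and 1362 CPM with NaNO3, against 1315, 1967 and 2251 CPM with water. The glutathione S-transferase 2 gene BC629DRAFT_435287, of a detoxifying family, stood at 28.9, 4015 and 3965 CPM with NaNO3, against 4177, 1585 and 913 CPM with water, so that replicates 2 and 3 shared the level of water replicate 1. Trehalose-phosphatase (BC629DRAFT_1715247), the last step to the storage sugar trehalose, stood at 363, 49.3 and 45.8 CPM with NaNO3, against 29.1, 26.5 and 39.7 CPM with water. None of these was called. Trehalose-phosphatase, whose NaNO3 libraries all lay above all water libraries, was picked as a member of its list. The others were chosen for their distance in replicate 1, which is given with no test.

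Cytosolic ribosomal proteins showed the same split as the peroxidases. Of 90 tested genes 0 were called and 0 passed an unadjusted p under 0.05 (DESeq2, voom and limma on FPKM: 0). Replicate 1 lay at least 2-fold below its mates in 80 of the 90, and the summed level was 15757, 44036 and 34756 CPM in the NaNO3 libraries, against 37888, 35842 and 39897 CPM in the water libraries. The median log2 fold change of the list was −0.27 with replicate 1 and 0.06 without it, so its sign depends on that library. The proteasome lay the other way, replicate 1 being its highest library, with sums of 4041, 2958 and 2632 CPM in the NaNO3 libraries, against 2200.1, 1781 and 1869 CPM in the water libraries.

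**Figure D5:**
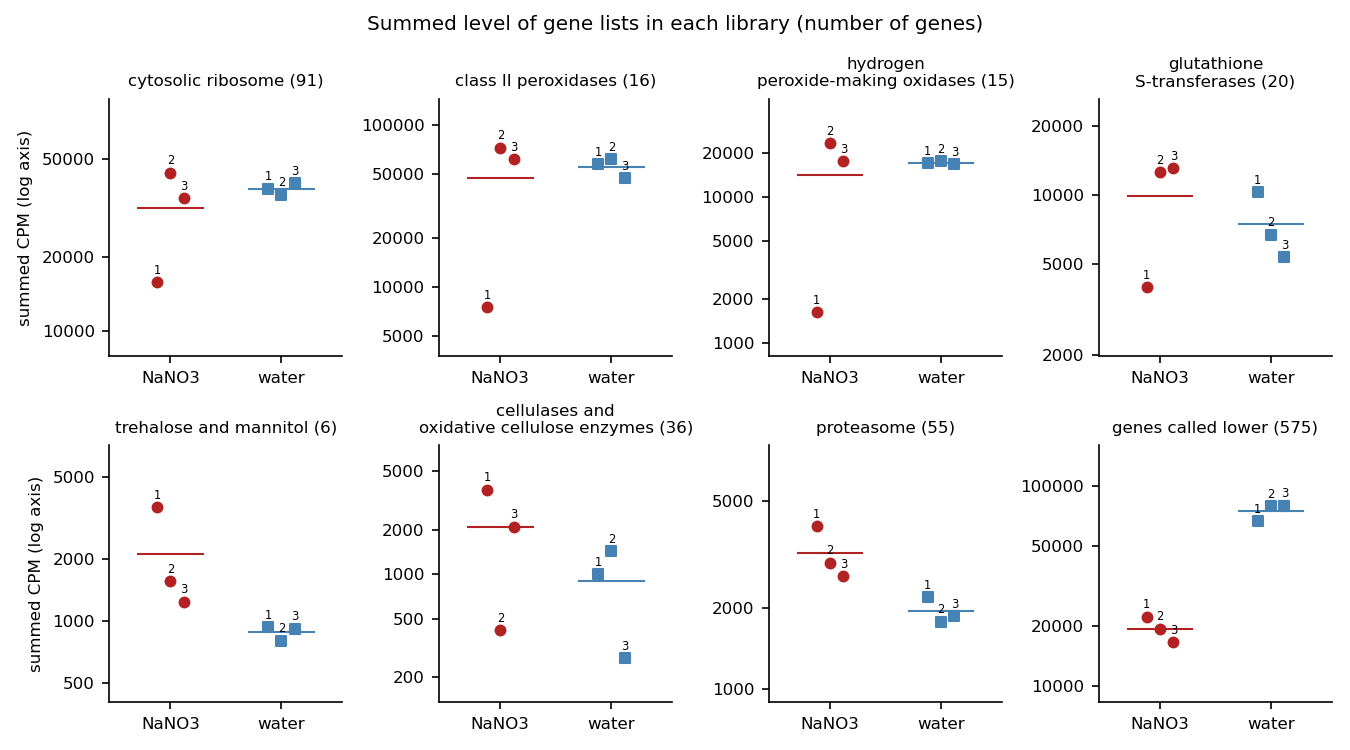
Summed CPM (log axes) of 8 gene sets in each NaNO3 library (circles, left) and water library (squares, right), with replicate numbers and group means as lines. NaNO3 replicate 1 lies below all other libraries in the ribosome, peroxidase, oxidase and glutathione S-transferase panels and above them in the trehalose, cellulase and proteasome panels, while the genes called lower, chosen on these libraries, lie below water in all 3 NaNO3 libraries.

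Genes with no eggNOG class numbered 6590 of the 14808 tested, of which 45 rose and 303 fell (28 and 218 without replicate 1). These were 0.683% and 4.6% of the class, against 1.18% and 3.88% of all genes tested, so the lower share was near that of all genes. Among classes with an assigned role, transcription had 1 higher and 27 lower of 383, lipid transport and metabolism 1 and 15 of 249, and energy production 4 and 18 of 398. Their lower shares were 7.05%, 6.02% and 4.52%, the last again near the 3.88% of all genes tested. Replication and repair had 5 and 0 of 230. Without replicate 1 the higher and lower calls were 1 and 15 for transcription, 0 and 10 for lipids, 3 and 9 for energy production and 2 and 2 for replication and repair. With the 6 NaNO3 and water libraries alone 82 genes were higher (0.561%) and 410 lower (2.81%), and with the 5 left after dropping NaNO3 replicate 1, 271 (1.83%) and 787 (5.32%). Across the fits of 9, 8, 6 and 5 libraries, 38 higher and 235 lower genes were called in all 4.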

How the data were processed

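RNA from straw carrying the fungus was sequenced after poly-T bead selection, per the labels' protocols. HISAT2 and StringTie are named, without versions, in the submitters' processing notes. The genome build is not given in the sources used here, and neither is whether counting used strand. The authors deposited 1 table of raw counts per gene and library and FPKM values made from them, the latter serving as an alternative and in the naming rule. Further deposited columns, per the file headers, hold the authors' DESeq2 log2 fold changes and adjusted p-values. 0 columns of other samples were found.

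Counts were tested with edgeR 4.0.16 in R 4.3.3 (filterByExpr, TMM, glmQLFit and glmQLFTest), with all 9 libraries in 1 fit without a block and the contrast NaNO3 minus water. The fit was repeated on 8 libraries. Alternatives used DESeq2 1.42.0, limma 3.58.1 (voom with quality weights, and log2(FPKM + 1) or + 0.1 for genes at an FPKM of at least 1 in 3 libraries), size factors, no filter, a replicate block and libraries left out. The common biological variation was 0.317, and 0.274 without NaNO3 replicate 1. No replicate pair held identical values: a chi-square per degree of freedom ran from 46.5 to 90.2 among water libraries, was 49.8 between NaNO3 replicates 2 and 3, and was 429.6 and 367 for replicate 1 against them. Standard errors are the log2 fold change over the square root of its F statistic. The code was tested on simulated counts.

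There were 43 gene lists of word patterns in the annotation, 1 of which, wheat photosynthesis, matched 0 genes. The members and lists were chosen with earlier results of these data known, so a list's count is a description. Genes were named by a rule: the 10 largest rises and falls with a product name and a mean FPKM of at least 10, in each list the 2 most abundant called members each way, all nitrate genes, the 5 most abundant called genes each way, the 6 furthest each way in NaNO3 replicate 1, and the 5 largest changes each way called only without it. This gave 95 genes, of which a part is printed; further members of the lists, and the families stated as such in the text, were picked with their values in view. The NH4Cl libraries' own comparisons were not analysed here.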

Additional observations from a re-analysis of the deposited data

How the results depend on the processing

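All calls lie close to the threshold, and the number called moved with the tool and with single libraries. With 9 libraries edgeR called 174 genes higher and 575 lower. DESeq2 gave 882 and 1043, and voom with library quality weights 763 and 1521. Limma on log2(FPKM + 1) gave 50 and 350, with a pseudocount of 0.1 it gave 46 and 322, and without a filter on low FPKM 24 and 296. With the 6 NaNO3 and water libraries alone 82 were higher (410 lower), with the 5 left after dropping NaNO3 replicate 1 271 were higher (787 lower), and without NaNO3 replicate 1 and NH4Cl replicate 3 together 394 were higher (708 lower). Leaving out each of the 9 libraries in turn gave 0 to 208 higher and 0 to 509 lower genes. Size factors in place of TMM (201 and 452) and no filter on low counts (136 and 391) kept both counts within 1.5 times; the share of calls that were lower was 69.2% under size factors and 76.8% under TMM.

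Without NaNO3 replicate 1 edgeR called 92 genes higher and 394 lower. DESeq2 then gave 475 and 955, voom 638 and 1181, the NaNO3 and water libraries alone 271 and 787, and leaving out NH4Cl replicate 3 as well 394 and 708. Leaving out each further NaNO3 or water library in turn gave 0 to 23 higher and 0 to 84 lower genes; where 1 NaNO3 library remained, it was assumed to vary like the other groups.

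Replicate numbers are shared by the groups. Deviations of same-numbered libraries from their group means correlated at 0.09, −0.05 and −0.11, and NaNO3 replicate 2 correlated best with water replicate 3, so the numbers were not taken to pair the samples. With the replicate number as a replicate block, edgeR called 0 genes higher and 0 lower (1268 and 1937 at an unadjusted p under 0.05), and also 0 and 0 without NaNO3 replicate 1 (1106 and 1783).

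Of 91 genes among those named in the text, 85 kept their direction and their side of the threshold under size factors. A further 5 lost their call, both pyruvate dehydrogenase subunits among them, and 1 gained it. Under DESeq2 0 lost it and 12 of 90 gained it. More of the 91 lost their call in other settings. With only the NaNO3 and water libraries 26 lost it and 0 gained it, and on log2(FPKM + 1) 27 lost and 1 gained it. Without NaNO3 replicate 1, 28 lost and 10 gained it, and without water replicate 1, 28 lost and 1 gained it. Without NH4Cl replicate 2, 26 lost and 0 gained it. With the replicate block 63 lost it and 0 gained it. Of the 91, only genes chosen for their distance in NaNO3 replicate 1 changed sign. The glutathione S-transferase 2 gene BC629DRAFT_435287 gave a log2 fold change of −1.15 on log2(FPKM + 1), with or without the filter, −1.16 with a pseudocount of 0.1 and, leaving out single libraries, −0.15 to 1.10. The versatile peroxidase BC629DRAFT_1293608 gave −1.42 to 0.10 leaving out single libraries, 0.11 without NaNO3 replicate 1 and NH4Cl replicate 3, and 0.094 with the NaNO3 and water libraries other than NaNO3 replicate 1. The cause of these differences was not tested.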
